A study of Mus musculus with 9 samples.

Results

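Dusp4, Dusp6, Spry2, Spry4, Spred1, Spred2, Etv4, Etv5, Egr1 and Errfi1 are 10 genes that cells switch on when the ERK kinase cascade is active. Their chromatin was measured in mouse embryonic stem cells by ATAC-seq. A transposase cuts and tags open DNA in this assay, so that the reads in a region measure how accessible it is. A region of the deposited count table was taken for a gene when it lay in the gene's RefSeq GRCm38.p6 span or within 50 kb of it and that gene was the nearest protein-coding gene. This gave 169 of the 157497 counted regions, from 3 for Egr1 to 41 for Spred2, and all 169 passed the filter on low counts.

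The 9 libraries fell into 3 groups of 3, all from cells that the labels call a Nanog knockout. For NanogKO:Esrrb:Nanog cells (label 44JN) the labels name Esrrb and Nanog beside the knockout. They name Esrrb for NanogKO:Esrrb cells (label 44J) and neither for NanogKO cells (label 44C6). Below, cells carrying or with a gene are those whose label names it. The labels do not describe the cells' own Esrrb gene, so NanogKO cells are not taken to lack Esrrb. Every culture was untreated, grew in 10% fetal bovine serum with 1000 U/ml of leukaemia inhibitory factor (LIF), and was sorted for cells with PECAM and without PDGFRA on their surface. The labels give 1 cell line name to NanogKO:Esrrb:Nanog and NanogKO:Esrrb and another to NanogKO, so a difference from NanogKO also compares differently named lines, and the 2 cannot be told apart. How the genes were added, at what dose, and whether replicates were separate cultures, the sources used here do not say, so the p-values measure only the spread between these libraries.

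As background, fibroblast growth factor bound to its receptor activates RAS, RAF, MEK and ERK, and in embryonic stem cells this cascade pushes cells out of naive pluripotency and, in some, towards primitive endoderm. The transcription factors NANOG and ESRRB belong to the pluripotency network, which works against that exit. ERK signalling switches on its own brakes. DUSP4 and DUSP6 are phosphatases that take phosphate off ERK, Sprouty and Spred proteins block the step from receptor to RAF, and ERRFI1 inhibits the epidermal growth factor receptor. ETV4 and ETV5, ETS-family transcription factors, and EGR1, a zinc-finger factor of the immediate early response, carry the signal to other genes.

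Libraries held 35545030 to 58520948 counted reads. Read counts were scaled to a common library size as CPM with TMM factors, and a region was called changed at a Benjamini-Hochberg adjusted p under 0.05 in edgeR's quasi-likelihood test over all 157439 regions tested. Every adjusted p below comes from that test, fold changes are log2 with their standard error unless called fold, and ± after CPM is the SD (n = 3). On the second principal component of all regions NanogKO:Esrrb:Nanog replicate 3 stood at 5.48, apart from replicates 1 and 2 of its group at 87.6 and 101. Without that library the counts below were 72 higher and 18 lower regions for NanogKO:Esrrb:Nanog against NanogKO, and 37 higher and 25 lower for NanogKO:Esrrb:Nanog against NanogKO:Esrrb. The regions are the merged peaks of 3 deposited lists, of which the list given for NanogKO:Esrrb:Nanog carries only peak names of a NanogKO:Esrrb library. Regions open only in NanogKO:Esrrb:Nanog cells may therefore not have been counted.

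Accessibility around these genes was mostly higher in cells carrying Esrrb. In NanogKO:Esrrb against NanogKO cells, 67 of the 169 regions rose and 17 fell, 39.6% and 10.1%, where 20.0% of all regions tested rose and 17.0% fell. In NanogKO:Esrrb:Nanog against NanogKO cells, 70 rose and 18 fell, 41.4% and 10.7%, beside 24.9% and 24.4% of all regions. These 2 comparisons share the NanogKO libraries. The median log2 fold change of the 169 regions was 0.29 in NanogKO:Esrrb and 0.33 in NanogKO:Esrrb:Nanog, and over all regions it was -0.01 in both. In a bulk library, fewer cells with a region open and less opening in each cell cannot be told apart.

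Regions also differed between the groups with and without Nanog. Against NanogKO:Esrrb cells, 35 regions rose and 19 fell in NanogKO:Esrrb:Nanog cells, 20.7% and 11.2%, beside 12.6% and 12.0% of all regions, with a median of 0.10 against -0.01 overall. This count depended on single libraries and on the scaling. The rises numbered 23 without NanogKO:Esrrb:Nanog replicate 2, 22 without NanogKO:Esrrb replicate 1 and 23 without NanogKO:Esrrb replicate 3, and the falls 10 without NanogKO:Esrrb:Nanog replicate 1. With library totals in place of TMM factors, which moved the median of all regions to -0.11, 21 regions rose and 32 fell. The shares of all regions in this and the preceding paragraph are also the background for the counts of each gene below.

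Against NanogKO, rises past 2-fold outnumbered falls around these genes. The share of all regions called past 2-fold was not counted, so whether this differs from other genes was not tested. Among called regions, 22 rose and 6 fell by more than 2-fold in NanogKO:Esrrb cells against NanogKO, and 40 rose and 11 fell in NanogKO:Esrrb:Nanog cells against NanogKO. Between NanogKO:Esrrb:Nanog and NanogKO:Esrrb cells only 3 rose and 3 fell by that much. The plot of every region shows the rises spread over Dusp6, Spry4, Spred2, Etv4 and Etv5, and the deepest falls as single regions of Errfi1, Dusp4 and Etv5.

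**Figure D1:**
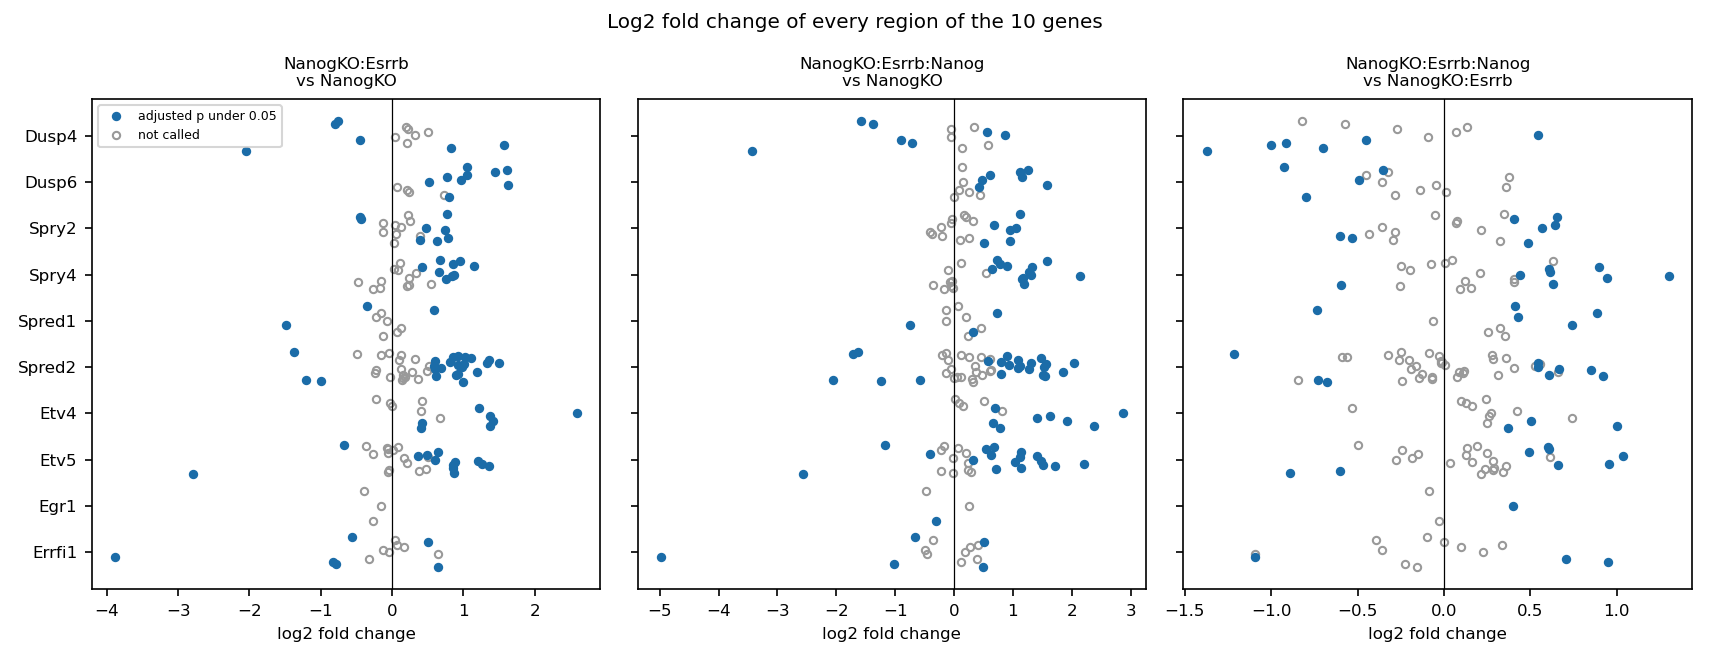
Log2 fold change (x axis) of each of the 169 regions, by gene down the page and by position within a gene, in the 3 comparisons. Filled points have an adjusted p under 0.05 and open points do not; the Dusp6 and Etv4 points hold no called fall against NanogKO, and the lowest Errfi1 point lies at -3.89 in NanogKO:Esrrb and at -4.98 in NanogKO:Esrrb:Nanog cells.

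Regions were also counted by their place relative to the gene. Of the 61 regions inside a gene but not at its start, 34 rose and 1 fell in NanogKO:Esrrb against NanogKO cells, and 36 rose and 2 fell in NanogKO:Esrrb:Nanog against NanogKO cells. Most of these rises came from Spred2 and Etv5, which also hold most of the 61 regions. Spred2 gave 19 of the 34 rises and Etv5 gave 9. For the 36 rises the numbers were 17 from Spred2 and 11 from Etv5. Of the same 61, 17 rose in NanogKO:Esrrb:Nanog against NanogKO:Esrrb cells. Of the 64 regions between 10 and 50 kb outside a gene, 24 rose and 12 fell in NanogKO:Esrrb against NanogKO, and 11 rose and 16 fell in NanogKO:Esrrb:Nanog against NanogKO:Esrrb. Counts by place were not made over all regions, so whether these shares differ from those of other genes was not tested. The annotation used gives gene spans without exons, so introns and exons were not told apart.

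Counts summed over all regions of a gene gave each gene 1 level per library, tested in the same way over 19083 genes. In NanogKO:Esrrb against NanogKO cells 6 of the 10 sums rose and 0 fell by edgeR, 0 by DESeq2 and 1 at an unadjusted p under 0.05, beside 17.2% and 16.5% of all genes. In NanogKO:Esrrb:Nanog against NanogKO cells 7 rose and 2 fell, beside 23.9% and 23.9%. The 2 that fell were Dusp4 and Errfi1, and the count was 0 without NanogKO replicate 1 and 1 without NanogKO:Esrrb:Nanog replicate 2, NanogKO:Esrrb:Nanog replicate 3 or NanogKO replicate 3. Against NanogKO:Esrrb cells, 3 sums rose and 2 fell in NanogKO:Esrrb:Nanog cells, beside 10.4% and 10.0%. The 3 became 1 without NanogKO:Esrrb:Nanog replicate 1, NanogKO:Esrrb:Nanog replicate 2 or NanogKO:Esrrb replicate 3, and the 2 became 1 without NanogKO:Esrrb replicate 2. With the replicate numbers as a block, 1 sum also fell in NanogKO:Esrrb against NanogKO cells, that of Errfi1 at -0.20 (adjusted p = 0.0105). A sum leans on the gene's strongest regions, which are often its start.

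**Figure D2:**
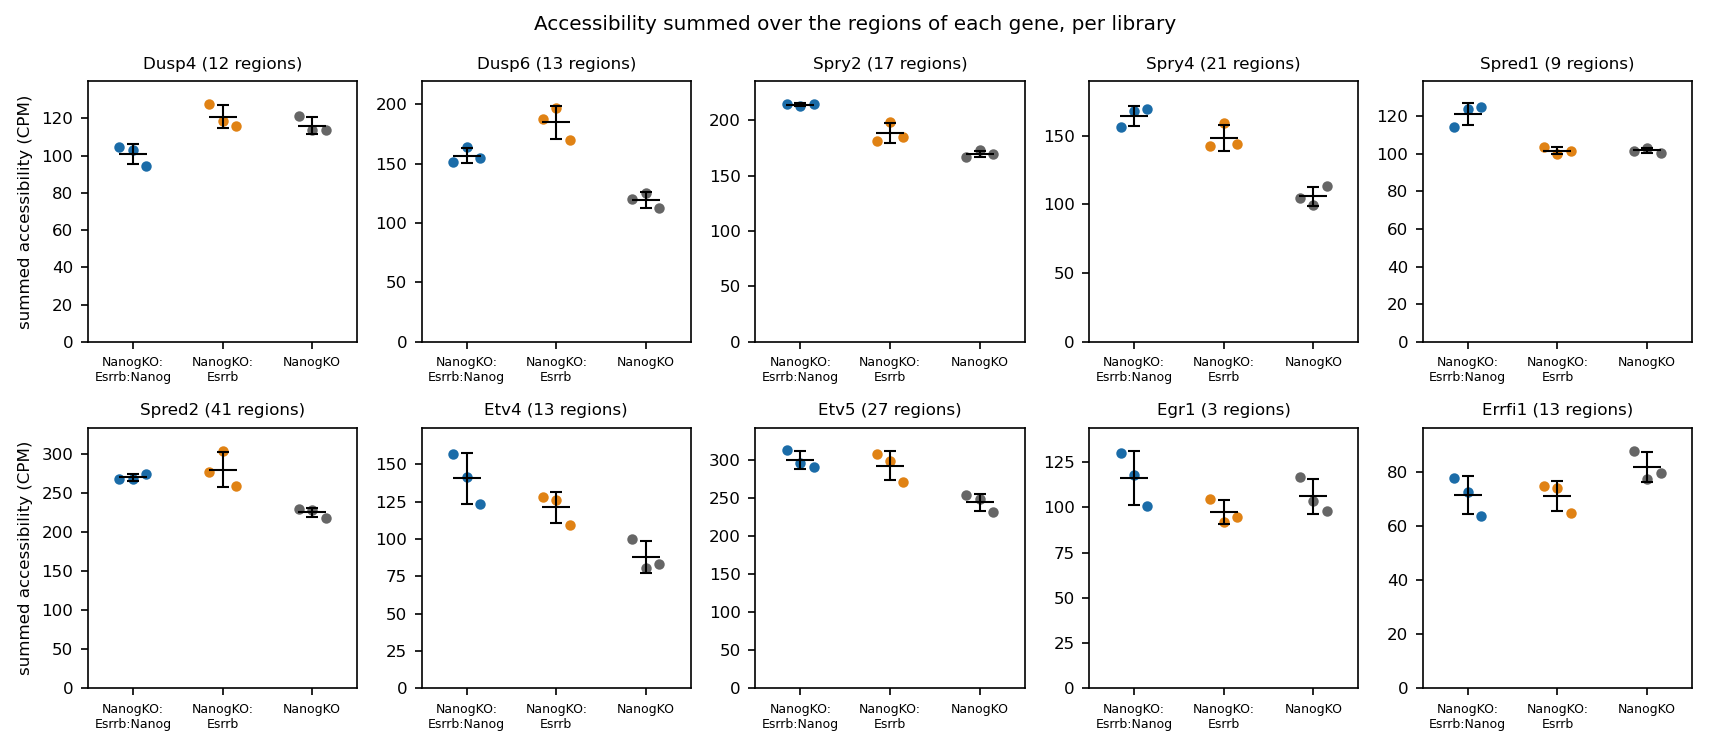
Accessibility summed over the regions of each gene, in CPM, for each library of the 3 groups; bars are mean and SD (n = 3). For Dusp6, Spry2, Spry4, Spred2, Etv4 and Etv5 every library carrying Esrrb lies above every NanogKO library. How many of all gene sums lie apart in this way was not counted, so this is not shown to be particular to these genes. For Errfi1 the means lie at 71.3 CPM in NanogKO:Esrrb:Nanog, 71.1 CPM in NanogKO:Esrrb and 81.6 CPM in NanogKO.

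The regions at the starts were highly accessible. The 10 regions at a start, or at an end of the gene where no start was listed, had mean CPM of 25.0 to 91.2, against a median of 3.80 for all 169 regions. Of these, 2 rose in NanogKO:Esrrb and 4 in NanogKO:Esrrb:Nanog cells against NanogKO, and 2 rose in NanogKO:Esrrb:Nanog against NanogKO:Esrrb cells. Over all regions 20.0%, 24.9% and 12.6% rose in these comparisons, and whether the counts at the 10 regions differ from those shares was not tested. The Dusp6 start region had 57.4, 51.9 and 45.9 CPM in NanogKO:Esrrb:Nanog, 59.4, 57.6 and 53.4 CPM in NanogKO:Esrrb, against 54.5, 49.1 and 43.1 CPM in NanogKO libraries. Its groups overlap, and it was not called in any comparison, although NanogKO:Esrrb against NanogKO reached an adjusted p of 0.0356 with the replicate block, at 0.22. The Errfi1 start region had 38.8, 28.1 and 26.3 CPM in NanogKO:Esrrb:Nanog, 30.4, 24.2 and 25.0 CPM in NanogKO:Esrrb, against 29.3, 26.1 and 26.6 CPM in NanogKO libraries. It was not called in any comparison over all 9 libraries, and neither were the start regions of Dusp4, Spred2 and Etv5.

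RefSeq lists 2 starts for Etv5, with different open regions beside them. The upstream start lies in a region that had 62.5, 57.4 and 46.2 CPM in NanogKO:Esrrb:Nanog, 55.7, 47.0 and 48.6 CPM in NanogKO:Esrrb, against 63.2, 49.1 and 46.9 CPM in NanogKO libraries. These values overlap between all groups. A separate region of 213 bases lies 82 bases upstream of the second start, and was picked out here after its values were seen. It had 21.8, 20.1 and 12.9 CPM in NanogKO:Esrrb:Nanog, 13.7, 10.7 and 11.6 CPM in NanogKO:Esrrb, against 12.6, 12.8 and 12.0 CPM in NanogKO libraries. It rose in NanogKO:Esrrb:Nanog against NanogKO:Esrrb cells by 0.61 ± 0.15 (adjusted p = 0.0044) and against NanogKO cells by 0.55 ± 0.15 (adjusted p = 0.0032). Replicate 3 of NanogKO:Esrrb:Nanog overlapped the NanogKO:Esrrb libraries, and the other two lay above all 6 libraries without Nanog.

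The 250 bases before 4 starts are shown because the regions at the Dusp6, Errfi1 and upstream Etv5 starts were not called in any comparison, while the one beside the second Etv5 start was. They are the Dusp6 start (chr10:99262981-99263230, plus strand), the upstream Etv5 start (chr16:22439571-22439820, minus strand), the second Etv5 start (chr16:22438369-22438618, minus strand) and the Errfi1 start inside an open region (chr4:150854820-150855069, plus strand), all from RefSeq on GRCm38. The counted regions cover 250 bases of the first, 250 of the second, 169 of the third and 250 of the last. Capitals mark CCAAT in either direction (ATTGG on the strand shown), TGACGTCA and TATAAA.
Dusp6: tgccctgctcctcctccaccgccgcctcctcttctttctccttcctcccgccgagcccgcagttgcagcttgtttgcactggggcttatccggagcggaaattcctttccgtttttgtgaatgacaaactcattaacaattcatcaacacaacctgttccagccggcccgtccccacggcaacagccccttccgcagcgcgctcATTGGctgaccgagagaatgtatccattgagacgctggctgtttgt
Etv5 upstream start: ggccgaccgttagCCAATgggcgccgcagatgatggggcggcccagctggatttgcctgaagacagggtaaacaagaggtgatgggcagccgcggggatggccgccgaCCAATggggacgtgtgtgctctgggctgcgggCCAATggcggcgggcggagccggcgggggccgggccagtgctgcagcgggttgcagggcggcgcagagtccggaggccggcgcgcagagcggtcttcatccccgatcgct
Etv5 second start: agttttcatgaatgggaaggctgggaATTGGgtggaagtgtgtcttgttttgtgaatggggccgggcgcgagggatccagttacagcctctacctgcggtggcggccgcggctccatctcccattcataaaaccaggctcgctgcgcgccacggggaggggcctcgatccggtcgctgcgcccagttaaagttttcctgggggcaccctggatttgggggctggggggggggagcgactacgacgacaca
Errfi1: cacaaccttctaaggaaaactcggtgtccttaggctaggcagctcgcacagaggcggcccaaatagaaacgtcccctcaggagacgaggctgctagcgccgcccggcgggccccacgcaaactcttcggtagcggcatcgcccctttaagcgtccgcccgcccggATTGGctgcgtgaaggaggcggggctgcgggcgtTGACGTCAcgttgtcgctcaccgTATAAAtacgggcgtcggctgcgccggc

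The upstream Etv5 window holds CCAAT 3 times, first at bases -237, -142 and -110 from the start, and the second holds it once, at -224 on the other strand. The Dusp6 window holds it once, from -46 to -42 on the other strand. The Errfi1 window holds CCAAT on the other strand from -85 to -81, TGACGTCA from -51 to -44 and TATAAA from -28 to -23. CCAAT occurs on either strand in 33.8% of 32851 RefSeq windows of the same 250 bases before a start, TATAAA in 12.4% and TGACGTCA in 1.55%, and these 3 were searched for after the sequences had been read. The 8 windows listed for Dusp6, Spry2, Spred1, Spred2, Etv5 and Errfi1 hold no match on either strand to TCAAGGTCA, a site of nuclear receptors such as ESRRB (in 0.387% of all windows), to the ETS site CCGGAAGT (2.88%), the AP-1 site TGANTCA (6.75%), the octamer ATTTGCAT (1.6%) or the STAT site TTCCNGGAA (0.913%). In the 4 printed windows 56.4%, 71.2%, 62.0% and 64.8% of bases are G or C, in the order shown, against a median of 52.4% over all windows.

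Dusp6, the cytoplasmic phosphatase of ERK, showed the broadest rise of the phosphatases. Its summed accessibility was 152, 164 and 155 CPM in NanogKO:Esrrb:Nanog, 187, 197 and 170 CPM in NanogKO:Esrrb, against 120, 126 and 113 CPM in NanogKO libraries. The 3 groups do not overlap, with NanogKO:Esrrb highest and NanogKO lowest. The sum rose by 0.63 ± 0.06 (adjusted p = 5.7e-07) in NanogKO:Esrrb and by 0.39 ± 0.06 (adjusted p = 5.7e-05) in NanogKO:Esrrb:Nanog cells against NanogKO. Between NanogKO:Esrrb:Nanog and NanogKO:Esrrb cells it fell by 0.24 (adjusted p = 0.014), and without NanogKO:Esrrb replicate 2 by 0.19 (adjusted p = 0.0566) and within 10 kb of the gene by 0.15 (adjusted p = 0.107).

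The Dusp6 rises lay outside the gene (chr10:99263231-99267489). Of its 12 regions outside the span, 9 rose in NanogKO:Esrrb and 7 in NanogKO:Esrrb:Nanog cells against NanogKO, the 7 becoming 4 without NanogKO replicate 1. In both comparisons 0 fell by edgeR, 0 by DESeq2 and 0 at an unadjusted p under 0.05. The strongest called region, 30994 bases past the end of the gene (chr10:99298483-99299531), had 16.4, 18.5 and 20.2 CPM in NanogKO:Esrrb:Nanog, 24.6, 25.2 and 20.8 CPM in NanogKO:Esrrb, against 7.32, 8.54 and 7.22 CPM in NanogKO libraries. It was 3.05-fold higher in NanogKO:Esrrb (log2 1.61 ± 0.13, adjusted p = 2.4e-10) and 2.39-fold higher in NanogKO:Esrrb:Nanog (1.25 ± 0.13, adjusted p = 5.8e-09) than in NanogKO cells. A region 2963 bases past the end, chosen after its values were seen, had 6.28, 7.89 and 7.14 CPM in NanogKO:Esrrb:Nanog, 6.70, 9.23 and 6.05 CPM in NanogKO:Esrrb, against 1.98, 2.06 and 3.06 CPM in NanogKO libraries. Both groups with Esrrb overlapped there, and each of their libraries lay above every NanogKO library, with rises of 1.58 ± 0.19 in NanogKO:Esrrb:Nanog and 1.63 ± 0.19 in NanogKO:Esrrb against NanogKO cells (adjusted p = 9e-08 and 1.2e-07).

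Another Dusp6 region stood apart in NanogKO:Esrrb cells. At 43312 bases past the gene it had 0.705, 1.03 and 0.865 CPM in NanogKO:Esrrb:Nanog, 1.55, 1.71 and 1.64 CPM in NanogKO:Esrrb, against 0.463, 0.882 and 0.973 CPM in NanogKO libraries. It rose by 1.06 ± 0.27 in NanogKO:Esrrb against NanogKO cells (adjusted p = 0.0024). It fell by 0.93 in NanogKO:Esrrb:Nanog against NanogKO:Esrrb cells (adjusted p = 0.013), and without NanogKO:Esrrb:Nanog replicate 1 by 0.80 (adjusted p = 0.0586).

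Dusp4, a nuclear phosphatase of ERK and other MAP kinases, moved both ways. Of its 12 regions (gene at chr8:34807610-34819894), 2 rose and 4 fell in NanogKO:Esrrb, and 2 rose and 5 fell in NanogKO:Esrrb:Nanog cells against NanogKO. In NanogKO:Esrrb:Nanog against NanogKO:Esrrb cells 1 rose and 5 fell. In the same order of comparisons the rises were 16.7%, 16.7% and 8.33%, below the 20.0%, 24.9% and 12.6% of all regions. The falls were 33.3%, 41.7% and 41.7%, beside 17.0%, 24.4% and 12.0% of all regions. The 4 falls numbered 2, 1, 2 and 2 without NanogKO:Esrrb replicate 1 or 2 or NanogKO replicate 1 or 3, the 2 rises in NanogKO:Esrrb:Nanog numbered 1 without NanogKO:Esrrb:Nanog replicate 1 or NanogKO replicate 2 or 3, and the 5 falls against NanogKO:Esrrb numbered 3 without NanogKO:Esrrb:Nanog replicate 1 or NanogKO:Esrrb replicate 3. Its summed accessibility was 105, 103 and 94.5 CPM in NanogKO:Esrrb:Nanog, 128, 118 and 116 CPM in NanogKO:Esrrb, against 121, 114 and 114 CPM in NanogKO libraries. Every NanogKO:Esrrb:Nanog library lay below all others. The sum fell by 0.26 in NanogKO:Esrrb:Nanog against NanogKO:Esrrb cells (adjusted p = 0.0064) and by 0.21 against NanogKO cells (adjusted p = 0.0096), or by 0.17 without NanogKO replicate 1 (adjusted p = 0.0562).

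The deepest Dusp4 change was stepwise over the groups. A region 31219 bases outside the gene (chr8:34776123-34776391) had 0.332, 0.176 and 0.277 CPM in NanogKO:Esrrb:Nanog, 0.755, 0.569 and 0.783 CPM in NanogKO:Esrrb, against 3.19, 2.65 and 2.92 CPM in NanogKO libraries. The groups do not overlap. It was 4.15-fold lower in NanogKO:Esrrb and 10.8-fold lower in NanogKO:Esrrb:Nanog than in NanogKO cells (adjusted p = 1.8e-07 and 1.5e-10), and 2.59-fold lower in NanogKO:Esrrb:Nanog than in NanogKO:Esrrb cells (adjusted p = 0.0024), on 6 to 16 reads per NanogKO:Esrrb:Nanog library. A weaker region 24005 bases outside went the other way in NanogKO:Esrrb cells, at 0.396 ± 0.079 CPM in NanogKO:Esrrb:Nanog, 0.797 ± 0.059 CPM in NanogKO:Esrrb, against 0.262 ± 0.092 CPM in NanogKO cells, a rise of 1.57 ± 0.33 in NanogKO:Esrrb against NanogKO (adjusted p = 0.00044). The region of the single rise against NanogKO:Esrrb, inside the gene, had 4.89, 3.99 and 2.89 CPM in NanogKO:Esrrb:Nanog, 2.54, 3.18 and 2.31 CPM in NanogKO:Esrrb, against 2.15, 2.28 and 1.99 CPM in NanogKO libraries. The groups with and without Nanog overlap there, the rise against NanogKO:Esrrb was 0.54 ± 0.20 (adjusted p = 0.0465), and it was 0.34 to 0.53 (adjusted p = 0.101 to 0.278) without NanogKO:Esrrb:Nanog replicate 1 or 2 or NanogKO:Esrrb replicate 1 or 3, and 0.43 with library totals (adjusted p = 0.112).

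**Figure D3:**
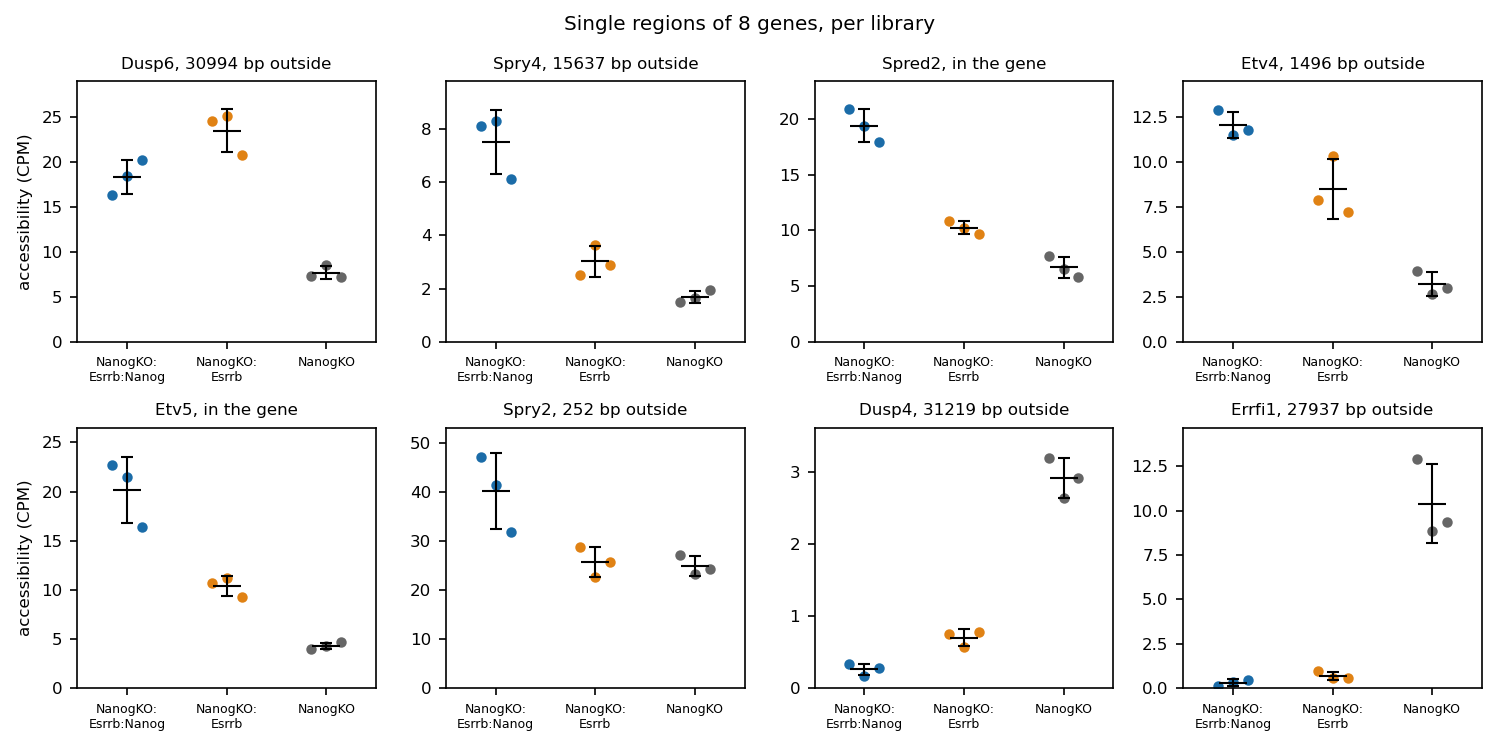
Accessibility in CPM of 1 region of each of 8 genes, per library in the 3 groups, with mean and SD (n = 3). The Dusp6, Spry4, Spred2, Etv4 and Etv5 regions lie lowest in NanogKO, the Spry2 region lies highest in NanogKO:Esrrb:Nanog, and the Dusp4 and Errfi1 regions lie highest in NanogKO, at means of 2.92 and 10.4 CPM.

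Spry2, a Sprouty inhibitor of receptor signalling, rose beside the gene start in cells carrying Nanog. Between NanogKO:Esrrb:Nanog and NanogKO:Esrrb cells this was the Spry2 rise of smallest p, while other Spry2 regions rose more against NanogKO. Its RefSeq start (chr14:105896819, minus strand) lies in no counted region, and the nearest region lies 252 bases upstream (chr14:105897071-105897542). That region had 47.1, 41.3 and 31.8 CPM in NanogKO:Esrrb:Nanog, 28.7, 22.6 and 25.7 CPM in NanogKO:Esrrb, against 27.2, 23.3 and 24.3 CPM in NanogKO libraries. All NanogKO:Esrrb:Nanog libraries lay above all others, which overlapped each other. It rose by 0.64 ± 0.13 in NanogKO:Esrrb:Nanog against NanogKO:Esrrb (adjusted p = 0.00097) and by 0.69 ± 0.13 against NanogKO cells (adjusted p = 9.1e-05).

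Other Spry2 regions had risen already with Esrrb. A region inside the gene (chr14:105893024-105893789) had 18.8, 17.1 and 20.0 CPM in NanogKO:Esrrb:Nanog, 14.0, 16.3 and 17.9 CPM in NanogKO:Esrrb, against 8.22, 9.59 and 10.97 CPM in NanogKO libraries, and every library with Esrrb lay above every one without. It rose by 0.96 ± 0.13 in NanogKO:Esrrb:Nanog and by 0.74 ± 0.13 in NanogKO:Esrrb against NanogKO cells (adjusted p = 7.6e-07 and 5.2e-05). Further out, 23424 bases upstream of the gene, a region had 32.7 ± 3.5 CPM in NanogKO:Esrrb:Nanog, 24.6 ± 0.91 CPM in NanogKO:Esrrb, against 33.3 ± 1.5 CPM in NanogKO cells. It fell by 0.43 in NanogKO:Esrrb against NanogKO cells (adjusted p = 0.0028) and was higher by 0.41 ± 0.11 in NanogKO:Esrrb:Nanog against NanogKO:Esrrb cells (adjusted p = 0.0091).

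Over all 17 Spry2 regions, 6 rose and 2 fell in NanogKO:Esrrb and 6 rose in NanogKO:Esrrb:Nanog against NanogKO cells, and 5 rose and 2 fell in NanogKO:Esrrb:Nanog against NanogKO:Esrrb cells. The 2 falls in NanogKO:Esrrb became 1 without NanogKO:Esrrb replicate 1 or 2 or NanogKO replicate 2. The 2 against NanogKO:Esrrb became 0 without NanogKO:Esrrb:Nanog replicate 1 or NanogKO:Esrrb replicate 2, 1 without NanogKO:Esrrb replicate 3 and 4 without NanogKO:Esrrb:Nanog replicate 3. The summed accessibility was 215, 213 and 215 CPM in NanogKO:Esrrb:Nanog, 181, 199 and 185 CPM in NanogKO:Esrrb, against 167, 173 and 169 CPM in NanogKO libraries, with no overlap between groups. The rise of 0.33 ± 0.05 in NanogKO:Esrrb:Nanog against NanogKO (adjusted p = 5.4e-05) was called with any library left out. The rise of 0.15 ± 0.05 in NanogKO:Esrrb against NanogKO (adjusted p = 0.038) was not, at 0.11 to 0.16 (adjusted p = 0.0666 to 0.131) without NanogKO:Esrrb replicate 2 or any single NanogKO library, and 0.12 (adjusted p = 0.0859) with library totals. The rise of 0.18 ± 0.05 in NanogKO:Esrrb:Nanog against NanogKO:Esrrb (adjusted p = 0.023) gave 0.16 to 0.19 (adjusted p = 0.0526 to 0.111) without NanogKO:Esrrb:Nanog replicate 1 or 2 or NanogKO:Esrrb replicate 1 or 3.

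**Figure D4:**
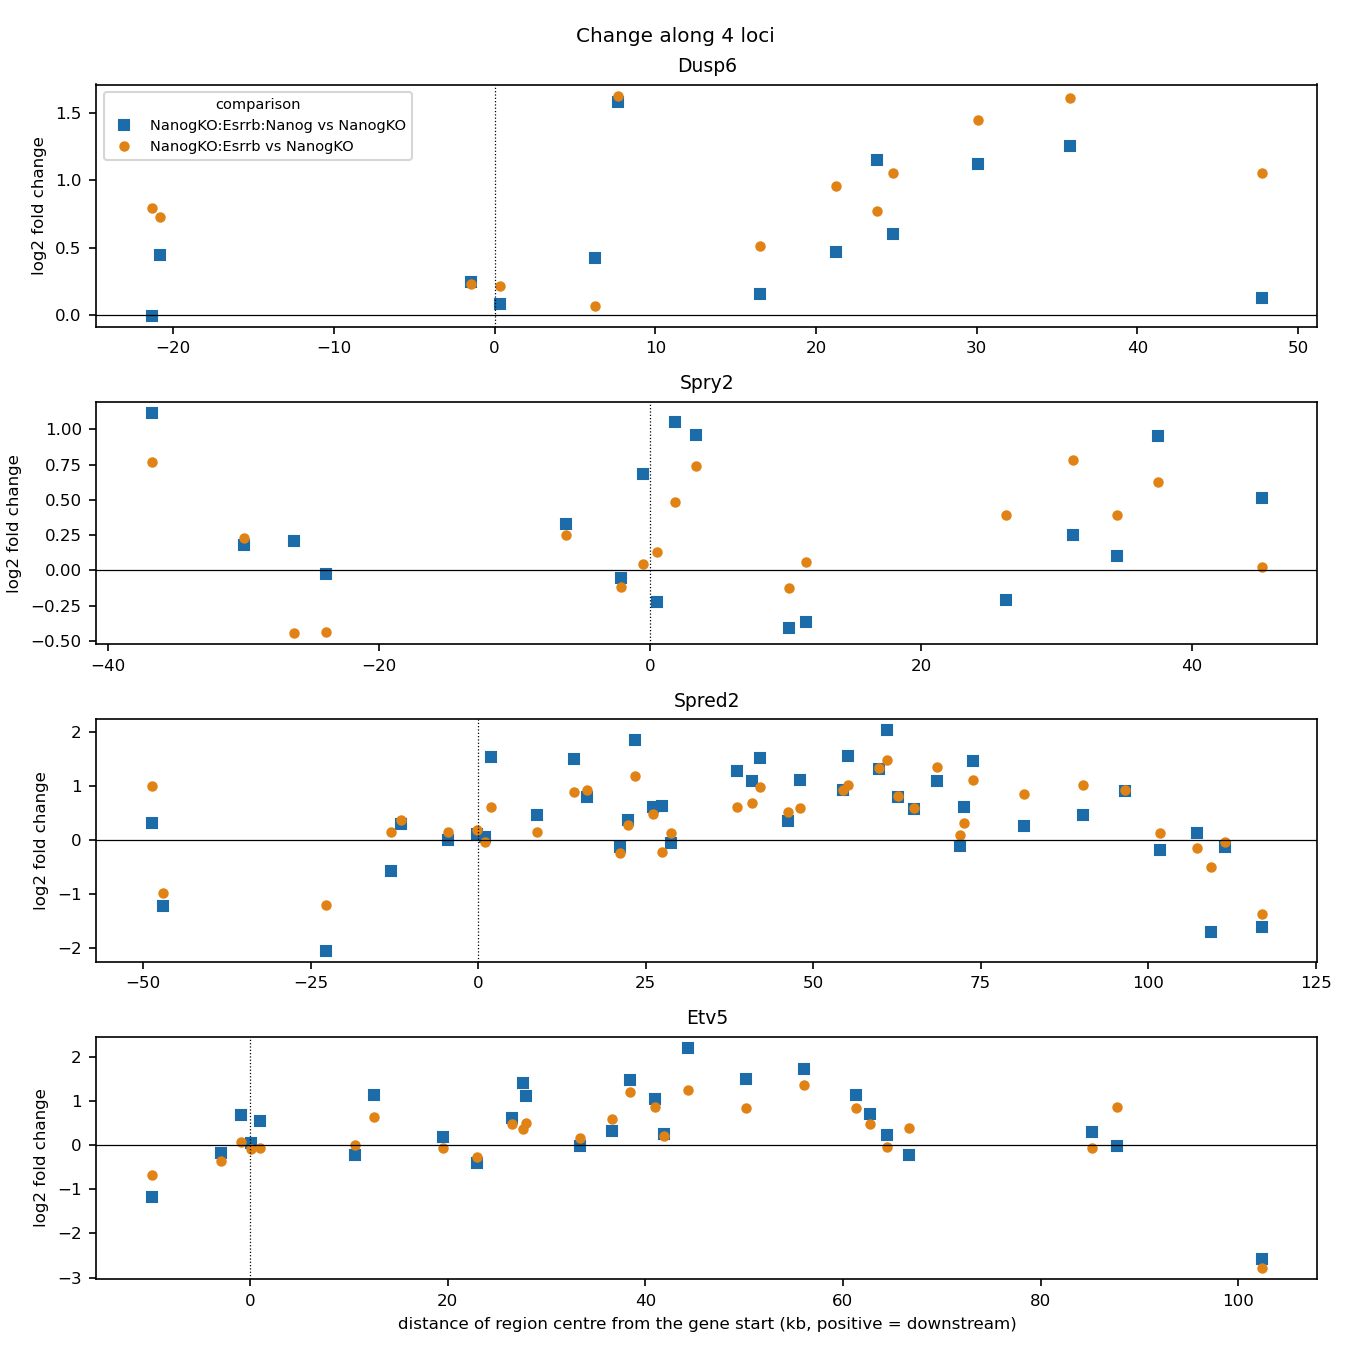
Log2 fold change against NanogKO (y axis) of each region of Dusp6, Spry2, Spred2 and Etv5, by distance of the region's centre from the gene's start in kb (x axis, positive downstream). Squares are NanogKO:Esrrb:Nanog and circles NanogKO:Esrrb cells; a Spred2 region close behind the start lies at 1.54 in NanogKO:Esrrb:Nanog and at 0.62 in NanogKO:Esrrb cells, and rises lie on both sides of the Dusp6 and Spred2 starts.

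Spred2, a Sprouty-related inhibitor of RAF activation, held the most regions. Of the 30 regions within its span (chr11:19924442-20024026), 19 rose in NanogKO:Esrrb and 17 in NanogKO:Esrrb:Nanog cells against NanogKO. Of the 11 regions outside it, 1 rose and 3 fell in NanogKO:Esrrb, and 5 fell in NanogKO:Esrrb:Nanog cells against NanogKO. A region inside the gene (chr11:19926094-19926494), close behind the start, had 20.9, 19.4 and 17.9 CPM in NanogKO:Esrrb:Nanog, 10.9, 10.2 and 9.69 CPM in NanogKO:Esrrb, against 7.68, 6.54 and 5.84 CPM in NanogKO libraries. The groups do not overlap and stand in that order. It was 2.91-fold higher in NanogKO:Esrrb:Nanog (1.54 ± 0.13, adjusted p = 2.3e-10) and 1.54-fold higher in NanogKO:Esrrb (0.62 ± 0.13, adjusted p = 0.00043) than in NanogKO cells.

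Other regions within Spred2 rose in both groups carrying Esrrb. One near the far end of the gene (chr11:20020416-20021662) had 15.1, 13.4 and 14.2 CPM in NanogKO:Esrrb:Nanog, 13.4, 15.8 and 14.2 CPM in NanogKO:Esrrb, against 7.05, 8.08 and 7.64 CPM in NanogKO libraries, with both groups carrying Esrrb overlapping and above NanogKO. The rises against NanogKO were 0.91 ± 0.12 in NanogKO:Esrrb:Nanog and 0.93 ± 0.12 in NanogKO:Esrrb cells (adjusted p = 8.7e-07 and 1.1e-06), and the difference between these 2 groups was -0.03 ± 0.12 (adjusted p = 0.90). The only regions past a 4-fold change in NanogKO:Esrrb:Nanog against NanogKO, both picked after seeing their values, moved in opposite directions. One inside the gene (chr11:19985387-19985650) had 6.05, 5.19 and 8.59 CPM in NanogKO:Esrrb:Nanog, 4.73, 5.41 and 3.57 CPM in NanogKO:Esrrb, against 1.71, 1.91 and 1.24 CPM in NanogKO libraries, 4.10-fold higher in NanogKO:Esrrb:Nanog than in NanogKO (adjusted p = 9e-09). The other, 22371 bases outside, fell by 2.06 in NanogKO:Esrrb:Nanog and by 1.21 in NanogKO:Esrrb cells against NanogKO, and the difference of -0.85 between NanogKO:Esrrb:Nanog and NanogKO:Esrrb (adjusted p = 0.0595) was -0.90 with the replicate block (adjusted p = 0.0304).

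At 17128 bases past the gene a region fell in both groups with Esrrb. It had 2.49, 1.11 and 1.97 CPM in NanogKO:Esrrb:Nanog, 1.93, 2.46 and 2.33 CPM in NanogKO:Esrrb, against 5.63, 6.28 and 5.58 CPM in NanogKO libraries. All NanogKO libraries were above the rest. Summed over its 41 regions, Spred2 had 268, 268 and 275 CPM in NanogKO:Esrrb:Nanog, 277, 304 and 259 CPM in NanogKO:Esrrb, against 230, 228 and 218 CPM in NanogKO libraries, with rises of 0.26 ± 0.06 in NanogKO:Esrrb:Nanog and 0.32 ± 0.06 in NanogKO:Esrrb against NanogKO cells (adjusted p = 0.0014 and 0.00044).

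Spred1, the other Spred gene measured, rose in cells carrying Nanog. Of its 9 regions, 4 rose and 1 fell in NanogKO:Esrrb:Nanog against NanogKO:Esrrb cells, with 2, 2 and 1 rises without NanogKO:Esrrb:Nanog replicate 2, NanogKO:Esrrb replicate 1 or NanogKO:Esrrb replicate 2. A region 12029 bases past the gene (chr2:117194308-117194900) had 19.1, 23.7 and 24.4 CPM in NanogKO:Esrrb:Nanog, 12.4, 11.9 and 12.1 CPM in NanogKO:Esrrb, against 11.8, 13.9 and 14.8 CPM in NanogKO libraries. The NanogKO:Esrrb:Nanog libraries stood above the other 6, which overlapped. It rose by 0.89 ± 0.12 in NanogKO:Esrrb:Nanog against NanogKO:Esrrb and by 0.73 ± 0.12 against NanogKO cells (adjusted p = 1.7e-05 and 2.1e-05). An internal region (chr2:117157953-117158332) had 1.06, 1.79 and 1.92 CPM in NanogKO:Esrrb:Nanog, 0.934, 0.787 and 1.13 CPM in NanogKO:Esrrb, against 2.66, 2.90 and 2.47 CPM in NanogKO libraries, and fell by 1.49 in NanogKO:Esrrb against NanogKO cells (adjusted p = 1.6e-05).

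The Spred1 start region (chr2:117119420-117121701) had 67.5, 64.9 and 61.6 CPM in NanogKO:Esrrb:Nanog, 57.1, 51.4 and 54.0 CPM in NanogKO:Esrrb, against 56.1, 50.01 and 49.2 CPM in NanogKO libraries. The NanogKO:Esrrb:Nanog libraries lay above all others. It rose by 0.32 ± 0.11 in NanogKO:Esrrb:Nanog against NanogKO cells (adjusted p = 0.015), but by 0.30 without NanogKO replicate 2 (adjusted p = 0.069) and by 0.29 without NanogKO replicate 3 (adjusted p = 0.0716). Against NanogKO:Esrrb it was higher by 0.26 ± 0.11 (adjusted p = 0.08), or 0.0216 with the replicate block. The sum over the 9 regions rose by 0.25 ± 0.06 in NanogKO:Esrrb:Nanog against NanogKO:Esrrb and by 0.25 ± 0.06 against NanogKO cells (adjusted p = 0.0046 and 0.0012), and the first of these was 0.16 (adjusted p = 0.0723) within 10 kb of the gene.

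Etv4 regions rose in both groups carrying Esrrb. Of its 13 regions (gene at chr11:101769747-101785310), 7 rose in NanogKO:Esrrb and 8 in NanogKO:Esrrb:Nanog cells against NanogKO. In both, 0 fell by edgeR, 0 by DESeq2 and 0 at an unadjusted p under 0.05. A region 1496 bases outside the gene (chr11:101786806-101787274) had 12.9, 11.5 and 11.8 CPM in NanogKO:Esrrb:Nanog, 7.89, 10.3 and 7.22 CPM in NanogKO:Esrrb, against 3.93, 2.65 and 3.00 CPM in NanogKO libraries, with no overlap between groups. It was 3.80-fold higher in NanogKO:Esrrb:Nanog and 2.68-fold higher in NanogKO:Esrrb than in NanogKO cells (adjusted p = 2.6e-10 and 1.2e-07). Inside the gene, a region of 323 bases (chr11:101778061-101778383) had 3.34, 4.05 and 3.44 CPM in NanogKO:Esrrb:Nanog, 1.67, 2.24 and 1.46 CPM in NanogKO:Esrrb, against 0.561, 0.643 and 0.851 CPM in NanogKO libraries. That order held without overlap, and the rise between NanogKO:Esrrb:Nanog and NanogKO:Esrrb was 1.00 ± 0.21 (adjusted p = 0.0013).

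The end of Etv4 at the higher coordinate lay in an open region. That region (chr11:101784544-101786305) had 66.7, 55.5 and 42.5 CPM in NanogKO:Esrrb:Nanog, 52.2, 44.9 and 41.4 CPM in NanogKO:Esrrb, against 42.0, 32.1 and 29.9 CPM in NanogKO libraries. NanogKO replicate 1 overlapped the NanogKO:Esrrb libraries. The rise was 0.66 ± 0.14 in NanogKO:Esrrb:Nanog (adjusted p = 0.00039) and 0.41 ± 0.14 in NanogKO:Esrrb against NanogKO (adjusted p = 0.025), and the second of these was 0.32 to 0.36 (adjusted p = 0.111 to 0.139) without NanogKO:Esrrb replicate 1, NanogKO replicate 2 or NanogKO replicate 3. The largest fold of all 13 was at a weak region 10541 bases outside, picked after seeing its values, with 1.74, 1.61 and 1.38 CPM in NanogKO:Esrrb:Nanog, 1.49, 1.17 and 1.25 CPM in NanogKO:Esrrb, against 0.195, 0.312 and 0.122 CPM in NanogKO libraries, the last from 6 to 17 reads. The sum over Etv4 rose by 0.68 ± 0.09 in NanogKO:Esrrb:Nanog and by 0.47 ± 0.09 in NanogKO:Esrrb against NanogKO cells (adjusted p = 5.2e-06 and 0.00047). With the replicate block, the difference of 0.21 between NanogKO:Esrrb:Nanog and NanogKO:Esrrb had an adjusted p of 0.013, against 0.093 without it, and the difference of 0.25 at the end region (adjusted p = 0.203) was 0.23 with the block (adjusted p = 0.0494).

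Etv5, the close relative of Etv4, rose within the gene, while the region at its upstream start was not called. Of the 17 regions within its span, 9 rose in NanogKO:Esrrb and 11 in NanogKO:Esrrb:Nanog cells against NanogKO, and 1 fell in the second comparison. A region of 333 bases inside the gene (chr16:22395127-22395459) had 22.7, 21.5 and 16.4 CPM in NanogKO:Esrrb:Nanog, 10.7, 11.2 and 9.29 CPM in NanogKO:Esrrb, against 4.02, 4.32 and 4.66 CPM in NanogKO libraries. The groups stand apart in that order. It rose by 2.21 ± 0.14 in NanogKO:Esrrb:Nanog against NanogKO (adjusted p = 2e-12), by 1.26 ± 0.14 in NanogKO:Esrrb against NanogKO (adjusted p = 9.2e-08) and by 0.95 ± 0.13 in NanogKO:Esrrb:Nanog against NanogKO:Esrrb cells (adjusted p = 1.7e-05).

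Another internal Etv5 region (chr16:22411877-22412062) had 13.7, 11.002 and 11.7 CPM in NanogKO:Esrrb:Nanog, 6.42, 6.10 and 5.29 CPM in NanogKO:Esrrb, against 4.44, 4.79 and 4.52 CPM in NanogKO libraries. Most of that difference was between the groups with and without Nanog, at 1.04 ± 0.14 in NanogKO:Esrrb:Nanog against NanogKO:Esrrb cells (adjusted p = 9.3e-06). The rise of 0.37 ± 0.14 in NanogKO:Esrrb against NanogKO (adjusted p = 0.042) was 0.31 to 0.40 (adjusted p = 0.0695 to 0.16) without NanogKO:Esrrb replicate 1 or 2 or any single NanogKO library. Far outside, 44044 bases away (chr16:22337060-22337269), a region had 0.373, 0.411 and 0.432 CPM in NanogKO:Esrrb:Nanog, 0.238, 0.469 and 0.331 CPM in NanogKO:Esrrb, against 2.39, 2.81 and 2.07 CPM in NanogKO libraries. It was 5.94-fold lower in NanogKO:Esrrb:Nanog and 6.89-fold lower in NanogKO:Esrrb than in NanogKO cells (adjusted p = 2.1e-08 and 1.2e-08). Over all 27 regions the Etv5 sum was 299 ± 12 CPM in NanogKO:Esrrb:Nanog, 292 ± 19 CPM in NanogKO:Esrrb, against 244 ± 11 CPM in NanogKO cells, rises of 0.29 ± 0.06 in NanogKO:Esrrb:Nanog and 0.26 ± 0.06 in NanogKO:Esrrb against NanogKO (adjusted p = 0.0006 and 0.0025).

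Spry4, the other Sprouty gene, rose over a run of regions beside it. Of its 21 regions, 9 rose in NanogKO:Esrrb and 12 in NanogKO:Esrrb:Nanog cells against NanogKO. By edgeR and by DESeq2 0 fell in both, and at an unadjusted p under 0.05 1 fell in NanogKO:Esrrb and 0 in NanogKO:Esrrb:Nanog cells. Against NanogKO:Esrrb cells, 7 rose in NanogKO:Esrrb:Nanog cells, or 4 without NanogKO:Esrrb:Nanog replicate 2 or without NanogKO:Esrrb replicate 1. A region of 180 bases lying 15637 bases outside the gene (chr18:38570431-38570610) had 8.09, 8.27 and 6.12 CPM in NanogKO:Esrrb:Nanog, 2.52, 3.65 and 2.89 CPM in NanogKO:Esrrb, against 1.49, 1.64 and 1.95 CPM in NanogKO libraries, without overlap. It was 4.41-fold higher in NanogKO:Esrrb:Nanog (adjusted p = 5.4e-10) and 1.79-fold higher in NanogKO:Esrrb (adjusted p = 0.0011) than in NanogKO cells, and 2.47-fold higher in NanogKO:Esrrb:Nanog than in NanogKO:Esrrb cells (adjusted p = 1.3e-05).

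Other regions at and beside Spry4 rose in both groups carrying Esrrb. A region 431 bases outside the span had 7.92, 5.34 and 9.13 CPM in NanogKO:Esrrb:Nanog, 9.26, 8.69 and 8.82 CPM in NanogKO:Esrrb, against 4.15, 3.42 and 4.48 CPM in NanogKO libraries, 1.88-fold higher in NanogKO:Esrrb:Nanog and 2.23-fold higher in NanogKO:Esrrb than in NanogKO (adjusted p = 6.5e-05 and 4.1e-06). The region across an end of the gene (chr18:38600791-38601836), which lies equally near Arhgap26, had 51.0, 44.7 and 37.7 CPM in NanogKO:Esrrb:Nanog, 47.1, 42.7 and 39.1 CPM in NanogKO:Esrrb, against 29.6, 25.7 and 25.4 CPM in NanogKO libraries. Both groups with Esrrb overlapped and lay above NanogKO, by 0.72 ± 0.12 in NanogKO:Esrrb:Nanog and 0.67 ± 0.12 in NanogKO:Esrrb (adjusted p = 1.8e-05 and 7.6e-05). The sum over the 21 regions was 165 ± 7.3 CPM in NanogKO:Esrrb:Nanog, 149 ± 9.4 CPM in NanogKO:Esrrb, against 106 ± 6.9 CPM in NanogKO cells, with rises of 0.63 ± 0.06 in NanogKO:Esrrb:Nanog and 0.49 ± 0.06 in NanogKO:Esrrb against NanogKO (adjusted p = 2.2e-07 and 9.9e-06).

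Egr1 had 3 regions. The one across the gene's span, the most accessible of all 169, had 126, 105 and 85.3 CPM in NanogKO:Esrrb:Nanog, 89.5, 73.9 and 75.8 CPM in NanogKO:Esrrb, against 102, 83.9 and 80.0 CPM in NanogKO libraries. The 3 groups overlap. Its rise of 0.40 ± 0.13 in NanogKO:Esrrb:Nanog against NanogKO:Esrrb (adjusted p = 0.027) became 0.25 to 0.40 (adjusted p = 0.0758 to 0.16) without NanogKO:Esrrb:Nanog replicate 1 or 2 or NanogKO:Esrrb replicate 2 or 3. A region 5613 bases outside fell by 0.30 in NanogKO:Esrrb:Nanog against NanogKO cells (adjusted p = 0.043), and by 0.26 to 0.28 (adjusted p = 0.0761 to 0.136) without NanogKO:Esrrb:Nanog replicate 1 or 3 or NanogKO replicate 1 or 2. In NanogKO:Esrrb against NanogKO 0 of the 3 were called by edgeR and 0 by DESeq2, with 1 lower at an unadjusted p under 0.05. The sum rose by 0.26 ± 0.08 in NanogKO:Esrrb:Nanog against NanogKO:Esrrb (adjusted p = 0.035), at 0.17 to 0.25 (adjusted p = 0.105 to 0.172) without NanogKO:Esrrb:Nanog replicate 1 or 2 or NanogKO:Esrrb replicate 2 or 3, and at 0.23 (adjusted p = 0.0518) with library totals.

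Errfi1 held the deepest fall of all 169 regions. The region lies 27937 bases before the gene (chr4:150825468-150825859), and had 0.124, 0.352 and 0.484 CPM in NanogKO:Esrrb:Nanog, 0.974, 0.553 and 0.592 CPM in NanogKO:Esrrb, against 12.9, 8.85 and 9.37 CPM in NanogKO libraries. The deposited lists hold a peak there in NanogKO alone. It was 31.6-fold lower in NanogKO:Esrrb:Nanog and 14.8-fold lower in NanogKO:Esrrb than in NanogKO cells (adjusted p = 3.1e-13 and 9.6e-12). The fall of 1.09 in NanogKO:Esrrb:Nanog against NanogKO:Esrrb (adjusted p = 0.021) rested on 6 to 49 reads per library. It was 0.69 without NanogKO:Esrrb:Nanog replicate 1 and 0.81 without NanogKO:Esrrb replicate 1 (adjusted p = 0.149 and 0.125), and 1.64 without NanogKO:Esrrb:Nanog replicate 3 (adjusted p = 0.00306).

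Other Errfi1 regions moved both ways. Of its 13 regions, 2 rose and 4 fell in NanogKO:Esrrb and 2 rose and 3 fell in NanogKO:Esrrb:Nanog cells against NanogKO, the 4 becoming 2 without NanogKO replicate 3. The shares that rose and fell were 15.4% and 30.8% in NanogKO:Esrrb, beside 20.0% and 17.0% of all regions. In NanogKO:Esrrb:Nanog they were 15.4% and 23.1%, beside 24.9% and 24.4%. Both shares of rises lay below those of all regions. The rises were lost with single libraries left out, to 0 of 13 without NanogKO:Esrrb replicate 2 or NanogKO replicate 2 in NanogKO:Esrrb, and to 0 without NanogKO:Esrrb:Nanog replicate 2, NanogKO replicate 2 or NanogKO replicate 3 in NanogKO:Esrrb:Nanog. A region 30053 bases before the gene had 2.11, 1.73 and 1.47 CPM in NanogKO:Esrrb:Nanog, 0.795, 1.11 and 0.835 CPM in NanogKO:Esrrb, against 1.61, 1.36 and 1.91 CPM in NanogKO libraries, with every NanogKO:Esrrb library below all others, and was higher by 0.95 ± 0.24 in NanogKO:Esrrb:Nanog than in NanogKO:Esrrb cells (adjusted p = 0.0061). The Errfi1 sum fell by 0.19 in NanogKO:Esrrb:Nanog against NanogKO cells (adjusted p = 0.046), and by 0.11 to 0.21 (adjusted p = 0.0694 to 0.219) without NanogKO:Esrrb:Nanog replicate 2 or 3 or NanogKO replicate 1 or 3. Within 10 kb of the gene alone, which leaves out the deep fall, it was 0.16 higher in NanogKO:Esrrb:Nanog (adjusted p = 0.15).

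Some regions of these genes fell in cells carrying Nanog against NanogKO:Esrrb cells. At 12777 bases before Spred2 a region had 6.74, 6.04 and 6.74 CPM in NanogKO:Esrrb:Nanog, 10.7, 12.1 and 9.50 CPM in NanogKO:Esrrb, against 10.7, 9.57 and 9.08 CPM in NanogKO libraries. Every NanogKO:Esrrb:Nanog library lay below the other 6, with a fall of 0.73 against NanogKO:Esrrb (adjusted p = 0.0004) and of 0.59 against NanogKO (adjusted p = 0.00079). In 3 more regions NanogKO:Esrrb stood above both other groups. A Spred1 region 24054 bases past the gene had 2.36, 2.52 and 2.70 CPM in NanogKO:Esrrb:Nanog, 4.45, 4.76 and 3.43 CPM in NanogKO:Esrrb, against 3.05, 2.72 and 2.64 CPM in NanogKO libraries, a fall of 0.73 in NanogKO:Esrrb:Nanog against NanogKO:Esrrb (adjusted p = 0.0044). An Etv5 region 29252 bases outside the gene had 1.12, 1.03 and 1.49 CPM in NanogKO:Esrrb:Nanog, 2.15, 1.98 and 2.70 CPM in NanogKO:Esrrb, against 1.34, 1.05 and 1.34 CPM in NanogKO libraries, a fall of 0.89 in NanogKO:Esrrb:Nanog against NanogKO:Esrrb (adjusted p = 0.0062). No library of NanogKO:Esrrb overlapped another group in these 2 or in the third region. The third, a Spry2 region 26134 bases outside, fell by 0.53 in NanogKO:Esrrb:Nanog against NanogKO:Esrrb (adjusted p = 0.018), and by 0.41 without NanogKO:Esrrb:Nanog replicate 1 and 0.40 without NanogKO:Esrrb replicate 2 (adjusted p = 0.106 in both). A Spry4 region 27950 bases outside fell by 0.59 (adjusted p = 0.024), and by 0.50 to 0.57 (adjusted p = 0.071 to 0.113) without NanogKO:Esrrb:Nanog replicate 1 or 2 or NanogKO:Esrrb replicate 1 or 3.

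Regions of other pathway genes also rose and fell. For 26 genes of the cascade from FGF4 and its receptors to ERK and RSK kinases, 121 of 371 regions rose and 81 fell in NanogKO:Esrrb:Nanog (32.6% and 21.8%), and 83 rose and 60 fell in NanogKO:Esrrb cells against NanogKO (22.4% and 16.2%), with medians of 0.11 and 0.04. For 24 other ERK target and feedback genes, 71 of 235 regions rose and 35 fell in NanogKO:Esrrb:Nanog (30.2% and 14.9%), and 58 rose and 29 fell in NanogKO:Esrrb cells against NanogKO (24.7% and 12.3%), with medians of 0.13 and 0.09. In NanogKO:Esrrb:Nanog against NanogKO:Esrrb cells the cascade had 51 rises and 33 falls (13.7% and 8.89%) and the other targets had 34 and 22 (14.5% and 9.36%). Over all regions the shares were 24.9% and 24.4% in NanogKO:Esrrb:Nanog and 20.0% and 17.0% in NanogKO:Esrrb against NanogKO, and 12.6% and 12.0% in NanogKO:Esrrb:Nanog against NanogKO:Esrrb.

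Single regions of these genes changed too. Inside Rps6ka1, which encodes an RSK kinase that ERK activates, a region had 29.4 ± 4.1 CPM in NanogKO:Esrrb:Nanog, 19.7 ± 2.5 CPM in NanogKO:Esrrb, against 4.36 ± 0.35 CPM in NanogKO cells, rises of 2.75 ± 0.14 in NanogKO:Esrrb:Nanog and 2.18 ± 0.14 in NanogKO:Esrrb against NanogKO (adjusted p = 4.3e-14 and 5.8e-12). Inside Spry1, another Sprouty gene, a region had 35.4 ± 2.2 CPM in NanogKO:Esrrb:Nanog and 12.2 ± 0.50 CPM in NanogKO cells, a rise of 1.53 ± 0.11 (adjusted p = 1.4e-11). Near Elk3, an ETS gene, a region rose by 1.72 ± 0.16 in NanogKO:Esrrb against NanogKO cells (adjusted p = 3.7e-09). In Il17rd, a membrane antagonist of FGF signalling, a region rose by 0.90 ± 0.13 in NanogKO:Esrrb:Nanog against NanogKO:Esrrb cells (adjusted p = 3.5e-05), and one near Gab1, an adaptor of receptor signalling, fell by 1.47 (adjusted p = 5.4e-08).

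Regions of embryonic stem cell marker genes moved in the same comparisons. Around 10 such genes, Pou5f1 and Sox2 among them, 61 of 124 regions rose and 15 fell in NanogKO:Esrrb:Nanog against NanogKO cells. That was 49.2% and 12.1%, beside 24.9% and 24.4% of all regions. In NanogKO:Esrrb against NanogKO cells 56 of these marker regions rose and 12 fell, 45.2% and 9.68%, beside 20.0% and 17.0%. Their summed accessibility was 1190 to 1288 CPM in NanogKO:Esrrb:Nanog, 1067 to 1162 CPM in NanogKO:Esrrb, against 885 to 979 CPM in NanogKO libraries, and the 169 regions summed to 1564 to 1782 CPM in NanogKO:Esrrb:Nanog, 1444 to 1590 CPM in NanogKO:Esrrb and 1278 to 1423 CPM in NanogKO libraries. Primitive endoderm markers (12 genes, all with regions) summed to 752 to 779 CPM in NanogKO:Esrrb:Nanog, 685 to 715 CPM in NanogKO:Esrrb, against 748 to 784 CPM in NanogKO libraries. Trophoblast markers (8 genes, all with regions) summed to 579 to 645 CPM in NanogKO:Esrrb:Nanog, 498 to 589 CPM in NanogKO:Esrrb, against 508 to 548 CPM in NanogKO libraries. Fibroblast markers (7 of 8 genes, none at Dcn) summed to 154 to 158 CPM in NanogKO:Esrrb:Nanog, 147 to 156 CPM in NanogKO:Esrrb, against 158 to 169 CPM in NanogKO libraries. In NanogKO:Esrrb:Nanog against NanogKO, 28.2% of primitive endoderm, 28.4% of trophoblast and 16.3% of fibroblast marker regions rose, and 23.4%, 24.3% and 28.6% fell. In NanogKO:Esrrb against NanogKO 23.4%, 18.9% and 12.2% rose, and 16.1%, 14.9% and 18.4% fell. In NanogKO:Esrrb:Nanog against NanogKO:Esrrb, in the same order of lists, 16.9%, 20.3% and 12.2% rose, and 11.3%, 4.05% and 10.2% fell. For embryonic stem cell markers these shares were 16.1% and 9.68%, and over all regions 12.6% and 12.0%. The 169 regions had 20.7% and 11.2% there, a share of rises close to that of the trophoblast markers. The part of these differences in the results above was not tested, and an open region does not show that a gene is expressed.

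Among genes with at least 5 regions, the one whose summed accessibility followed a gene most closely over the 9 libraries was Skap2 for Dusp6 (Pearson r of log2 CPM 0.985), Tbc1d24 for Spry4 (0.997), Lama1 for Spry2 (0.993), Gm38457 for Etv4 (0.991), Cga for Spred2 (0.988), Wnk1 for Etv5 (0.983), Abi1 for Spred1 (0.982), Cdkn2aip for Dusp4 (0.978) and Fam83f for Errfi1 (0.977). Each is the highest of the 9929 genes compared, all values come from the same 9 libraries in 3 groups, and none of these r shows more than that order. By the deposited peak lists of NanogKO:Esrrb and NanogKO, 99 of the 169 regions held a peak in both, 36 in NanogKO:Esrrb alone of the 2, 19 in NanogKO alone and 15 in neither. The whole NanogKO:Esrrb list is the longer, with 129086 peaks against 122360 in NanogKO. The same split was not counted over all regions, so these counts have no background share. Dusp6 had 4 regions with a peak in NanogKO:Esrrb alone and 0 in NanogKO alone, Etv4 5 and 0, and Errfi1 2 and 3.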

How the data were processed

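ATAC-seq libraries of 9 cultures in 3 groups were analysed, grouped by the labels. The series' design text speaks of 12 samples, and the other samples were not analysed here. The authors deposited raw read counts per region for all libraries in a single table, and a peak list per group whose score column is the authors' own, with 13 as its lowest score; that score was used for nothing beyond describing the lists. The submitters' processing notes name the build mm10, the peak caller MACS2 2.2.0, the aligner Bowtie2 and, further, cutadapt, bedtools 2.26.0, SAMtools 1.4.1, bcl2fastq 2.19.1 and deepTools 4.4.0, without saying how each was used. Which tool counted the reads, whether reads were shifted for the transposase and how duplicates were treated are points on which the sources are silent, so the counts were used as deposited, and counts of amplified reads carry more error than counting alone.

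Each region went to its nearest protein-coding gene within 50 kb (RefSeq GRCm38.p6 spans, whose build is mm10) and tested in edgeR 4.0.16 (R 4.3.3, limma 3.58.1) with filterByExpr, TMM factors and the quasi-likelihood F test over all 9 libraries (6 residual degrees of freedom), with Benjamini-Hochberg adjustment over all regions tested. Standard errors are the log2 fold change divided by the square root of F. Gene sums were tested in the same way. DESeq2 1.42.0, library totals in place of TMM, no filter, fits of 2 groups, other windows, a replicate block and single libraries left out were tried as alternatives. Peaks and regions were overlapped by at least 1 base in Python 3.11.15, where sequences and motifs were also read. The peak lists were merged with bedtools 2.31.1 for comparison with the counted regions. For Dusp4, Spry4, Etv4 and Egr1 no promoter sequence was searched. Those of Spry2, Spred1 and Spred2 were searched for motifs but are not printed.

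The 10 genes, the marker and pathway lists and the tests were chosen with earlier results of these data known. For each gene the regions named were taken from the region at the start (or nearest an end), the called region of smallest p in each direction and comparison, and the most accessible region, a few of which are not described; other regions are marked as chosen after their values were seen. In the pathway lists it names the genes that hold the called region of smallest p of a comparison. Replicates of a group were not copies: the chi-square per region between them was 3.55 to 9.49. Libraries with the same replicate number deviated together, with r from 0.117 to 0.152 between NanogKO:Esrrb and NanogKO and from 0.105 to 0.146 between NanogKO:Esrrb:Nanog and NanogKO:Esrrb, but from 0.002 to 0.136 between NanogKO:Esrrb:Nanog and NanogKO; no label ties a number to a culture or day, and the numbers were taken to pair the libraries in the first 2 of these comparisons. The gene most like Egr1 is not reported here.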

Additional observations from a re-analysis of the deposited data

How the results depend on the processing

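Of the log2 fold changes recomputed under the alternatives, 357 of gene sums kept their direction and side of the threshold, 24 lost the call, 8 gained it and 1 changed sign; for named regions these numbers were 1476, 86, 22 and 0. The change of sign was that of the Errfi1 sum within 10 kb in NanogKO:Esrrb:Nanog against NanogKO, 0.16. Within 10 kb, 43 regions rose and 5 fell in NanogKO:Esrrb against NanogKO, 8 fell in NanogKO:Esrrb:Nanog against NanogKO and 3 fell in NanogKO:Esrrb:Nanog against NanogKO:Esrrb, with 1 sum lower in each of the last 2; fewer regions enter that window. Within 100 kb the falls were 28, 29 and 29 in these comparisons, and over any region within 50 kb, nearest gene or not, 26, 35 and 31. Library totals in place of TMM gave 21 rises and 32 falls in NanogKO:Esrrb:Nanog against NanogKO:Esrrb; over the whole table they gave 12765 and 25391, against 19777 and 18935 with TMM, and a median of -0.10 in NanogKO:Esrrb:Nanog against NanogKO. A sum, 1 in number, fell in NanogKO:Esrrb against NanogKO with library totals, with the replicate block, with 2 groups in the fit and within 100 kb; with 2 groups in the fit 1 fell in NanogKO:Esrrb:Nanog against NanogKO. The causes were not tested.

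With single libraries left out, the rises and falls were 55 to 63 and 12 to 15 regions in NanogKO:Esrrb against NanogKO, 62 to 72 and 16 to 20 in NanogKO:Esrrb:Nanog against NanogKO, and 22 to 37 and 10 to 25 in NanogKO:Esrrb:Nanog against NanogKO:Esrrb. Sums gave 5 to 6 and 0 to 0, 7 to 8 and 0 to 2, and 1 to 4 and 1 to 2 in the same order of comparisons. With the replicate block, 70 regions rose and 19 fell, 78 rose and 20 fell, and 41 rose and 27 fell. Besides the calls given with the results, the block added 2, at an adjusted p of 0.0214 for a Spry2 region 32154 bases outside the gene in NanogKO:Esrrb:Nanog against NanogKO:Esrrb and at 0.017 for the region across Egr1, 0.24 higher in NanogKO:Esrrb:Nanog than in NanogKO (0.118 without the block), a comparison whose libraries the numbers were not taken to pair; it changed no other call of a named region or sum. With only 2 groups in the fit the Spry2 sum and the region across Egr1 in NanogKO:Esrrb:Nanog against NanogKO:Esrrb (adjusted p = 0.0591 and 0.0595), and the Errfi1 sum and the Egr1 region 5613 bases outside in NanogKO:Esrrb:Nanog against NanogKO (0.0507 and 0.0568), were no longer called. Regions under about 1 CPM rest on few reads, which limits their folds.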
